A study of Homo sapiens with 6 samples.

Results

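The 38 genes described here act in homologous recombination, in the Fanconi anaemia pathway of crosslink repair and in DNA mismatch repair. They were chosen by symbol, out of 17787 symbols listed in the deposited tables, and all 38 were listed on a single row in each of the 6 libraries. RNA came from A549, an established line of human lung adenocarcinoma cells. There were 3 libraries labelled siFOXD3, named for a small interfering RNA against the forkhead transcription factor FOXD3, and 3 labelled siNC with the genotype label wild type, which served as the controls. The sources used here do not give the meaning of the abbreviation siNC, the number and sequence of the interfering RNAs, their dose or the time of harvest, and no other treatment or allele is named for either group. Nothing in the labels says that replicates came from separate cultures, so the p-values cover just the variation among these libraries, which may be technical.

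Homologous recombination repairs a broken chromosome, or restarts a stalled replication fork, by copying the sister chromatid. A break is sensed by the MRE11, RAD50 and NBN proteins, its ends are trimmed to single strands, BRCA1 with BARD1 and BRCA2 with PALB2 prepare them for strand exchange, and the joined intermediates are undone by the BLM helicase complex or cut by nucleases. The Fanconi core complex attaches ubiquitin to FANCD2 and FANCI at DNA crosslinks and hands them to the same recombination proteins, while mismatch repair removes errors left by the replication polymerases. Many genes of these pathways are known to be transcribed most strongly as cells enter S phase, under E2F factors.

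Values are FPKM, which are sequenced fragments per length of transcript and per depth of library, so that levels of different genes can be compared. FOXD3 itself was at 0.0749 FPKM in siFOXD3 replicate 2 and has no row in the tables of siFOXD3 replicates 1 and 3, against 0.152, 0.291 and 0.134 FPKM in the siNC libraries, all under the 1 FPKM used as a filter. Depth, estimated from the steps between low values, was 8180000 to 9180000 fragments per siFOXD3 library and 7700000 to 7960000 per siNC library. The extraction protocol speaks of retina, although the samples are otherwise labelled A549. All 7 epithelial and A549 markers were at 1 FPKM or more in at least 1 library. Their list summed to 8074 to 8107 FPKM in siFOXD3 and 5473 to 6450 FPKM in siNC. None of 12 photoreceptor and retina markers reached 1 FPKM in any library, the highest being 0.952 FPKM. Of 10 leukocyte markers, CD14, CD68, LAPTM5 and LCP1 reached 1 FPKM, and the summed level of the list was 92.3 to 95.5 FPKM in siFOXD3 and 167 to 185 FPKM in siNC. The other leukocyte markers, PTPRC and CD3E among them, stayed at 0.538 FPKM or less. Of 6 fibroblast markers, only COL1A1 reached 1 FPKM in any library, and the list summed to 2.96 to 3.58 FPKM in siFOXD3 and 3.61 to 4.56 FPKM in siNC.

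Most of the recombination genes were higher in siFOXD3 cells, while the Fanconi core complex, the genes that resolve recombination intermediates and the mismatch repair genes held both rises and falls. Of the 38 members, all of which passed the filter of 1 FPKM or more in 3 or more libraries, 21 rose, 6 fell and 11 were not called (limma on log2(FPKM + 1), Benjamini-Hochberg adjusted p under 0.05 over 12555 genes, two-sided). Among all genes tested, 65.9% were called, 27.2% higher and 38.7% lower, so that 55.3% of members called higher stood against 27.2%, and 15.8% called lower stood against 38.7%. The median log2 fold change of the members was 0.32, with a range of -0.49 to 1.07, and that of all tested genes was -0.08. The 3 siFOXD3 values lay above all 3 siNC values for 21 members and below them for 8, where 70.7% of all tested genes had no overlap, 29.6% above and 41.1% below. Against a fold of 1.2 rather than no change, 15 members rose and 1, MUS81, fell, beside 12.9% and 21.3% of all genes. Quantile normalization raised the all-gene median by 0.10 to 0.03 and the member median to 0.42. It gave 25 members higher and 3 lower, beside 4253 higher and 3836 lower of the 12555 genes tested. In bulk RNA, fewer cells of a type and less RNA per cell cannot be told apart.

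**Figure D1:**
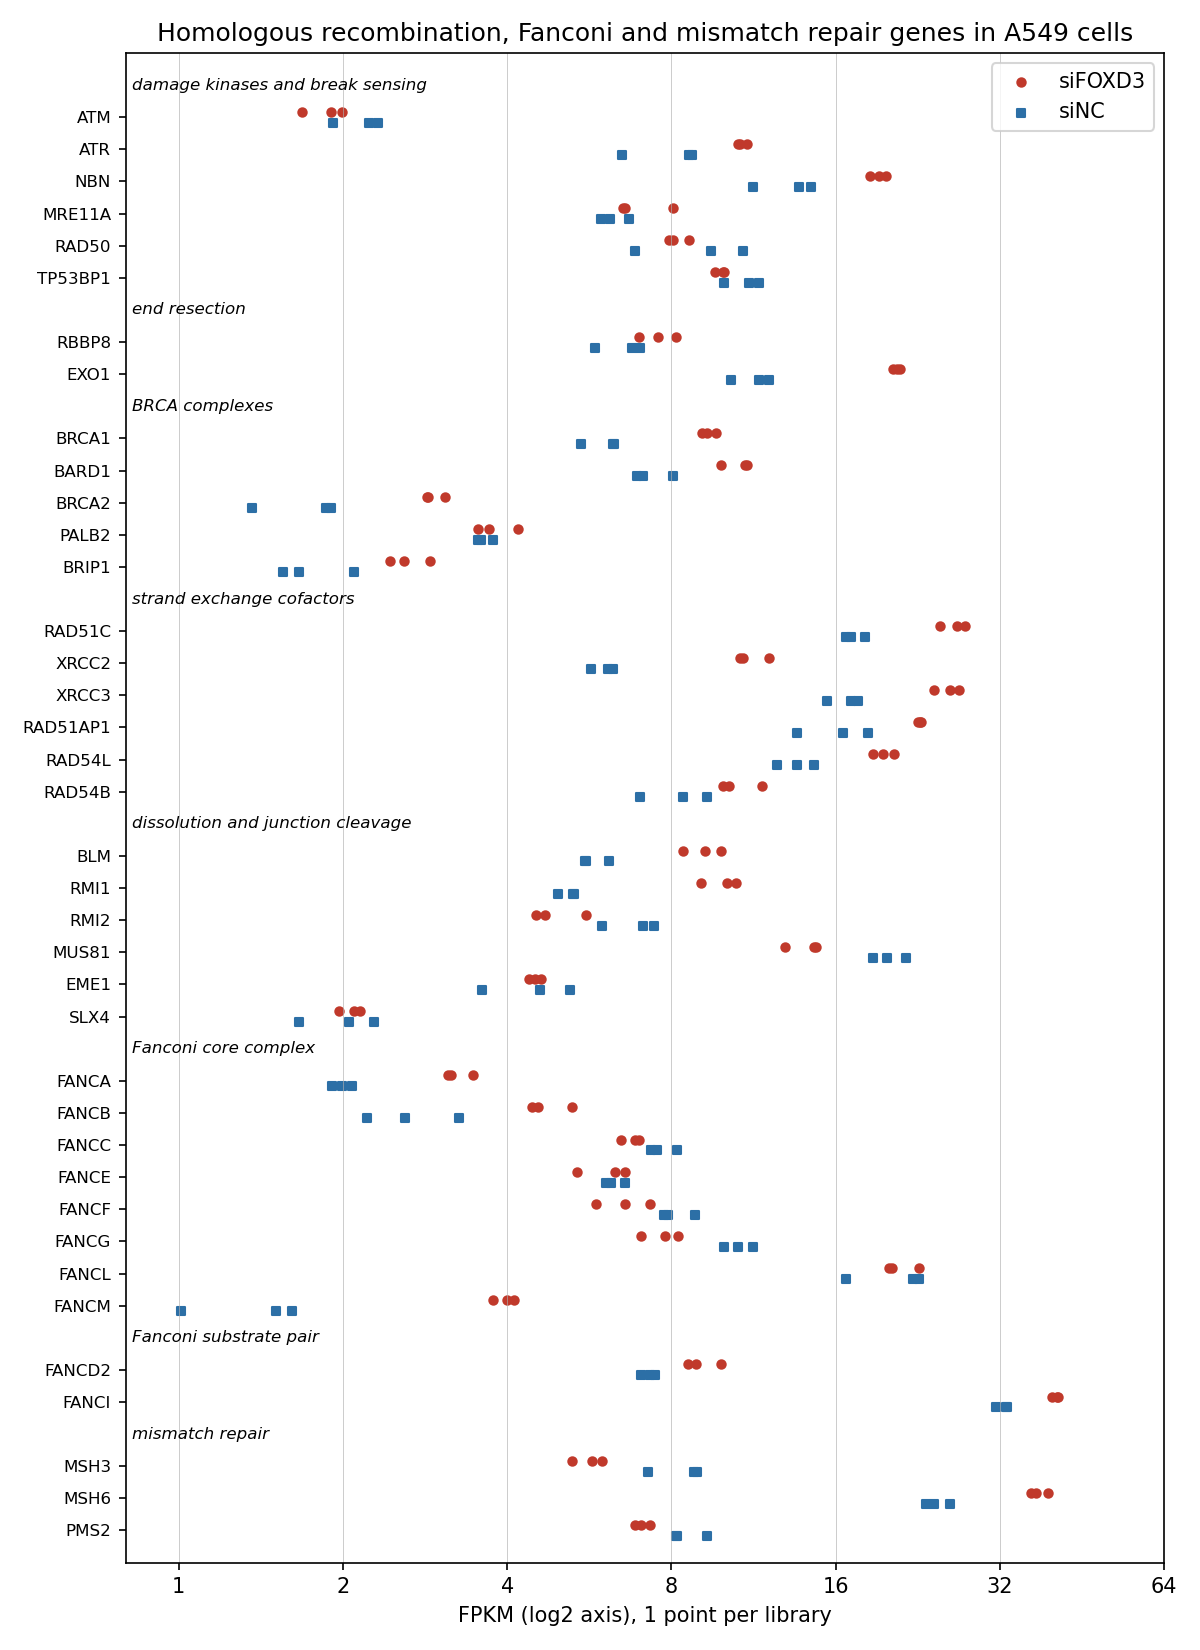
FPKM of each of the 38 members (log2 axis) in the 3 siFOXD3 libraries (circles, upper row) and the 3 siNC libraries (squares, lower row), grouped by role. FANCI and MSH6 are the most abundant members, FANCM has the widest gap between the groups, and the MUS81, FANCG and MSH3 circles lie to the left of the squares.

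The levels of the members spanned a wide range. In siFOXD3 cells the highest means were those of FANCI (40.4 ± 0.565 FPKM, SD, n = 3), the partner of FANCD2, and MSH6 (37.7 ± 1.41 FPKM), the mismatch recognition subunit for single-base errors. The lowest siFOXD3 means were 1.86 ± 0.160 FPKM for the break-activated kinase ATM and 2.07 ± 0.0924 FPKM for the nuclease scaffold SLX4. In siNC cells the order was similar at the top, with FANCI at 32.4 ± 0.769 and MSH6 at 24.5 ± 1.30 FPKM, while the lowest were FANCM at 1.38 ± 0.325 FPKM and BRCA2 at 1.70 ± 0.30 FPKM, whose siNC values overlap. The smallest estimate of fragments for a member in any library was 49, for FANCB in siNC replicate 3.

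Among the genes that sense breaks and signal them, NBN and ATR rose and ATM, MRE11A, RAD50 and TP53BP1 were not called. Changes are given on the log2 scale with ± SE, and adjusted p-values are those over all tested genes. NBN, the subunit that brings ATM to breaks, was at 18.5, 19.8 and 19.2 FPKM in siFOXD3 and at 11.3, 13.7 and 14.4 FPKM in siNC. Its log2 fold change was 0.52 (SE 0.09, adjusted p = 0.000388 by limma with Benjamini-Hochberg adjustment). ATR, the kinase that answers stalled forks, was at 10.7, 10.6 and 11 FPKM in siFOXD3 and at 6.49, 8.63 and 8.72 FPKM in siNC, with siNC replicate 1 the lowest of all. ATR rose by 0.40 ± 0.10 on the log2 scale (limma adjusted p = 0.00544). The sister kinase ATM had 1.90, 1.68 and 1.99 FPKM in siFOXD3 and 1.92, 2.23 and 2.32 FPKM in siNC, and the groups overlapped (-0.14 ± 0.10, limma adjusted p = 0.256). The nuclease MRE11A was at 6.59, 8.07 and 6.52 FPKM in siFOXD3 and 5.95, 6.68 and 6.18 FPKM in siNC. It was called higher with quantile normalization (0.31, limma adjusted p = 0.0153). RAD50, which tethers broken ends, had 7.92, 8.05 and 8.60 FPKM in siFOXD3 and 6.86, 9.47 and 10.8 FPKM in siNC. The siNC values of RAD50 straddled the siFOXD3 values, and without siNC replicate 1 it was called lower (-0.28, limma adjusted p = 0.0127). TP53BP1, which protects ends from trimming, was at 9.96, 10 and 9.62 FPKM in siFOXD3 and at 10, 11.6 and 11.1 FPKM in siNC, and before rounding all siFOXD3 values were the lower ones. It was not called with all libraries (-0.13, limma adjusted p = 0.132) and was called lower without siNC replicate 1 (-0.19, limma adjusted p = 0.03).

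Of the end resection genes, EXO1 rose and RBBP8 was not called. EXO1, the exonuclease that lengthens single-stranded ends and also removes mismatched strands, was at 21.0, 20.7 and 20.4 FPKM in siFOXD3 and at 12.1, 10.3 and 11.6 FPKM in siNC. The groups were far apart relative to their spread, with a log2 fold change of 0.82 (SE 0.07, limma adjusted p = 4.54e-06). RBBP8, which encodes the resection initiator CtIP, was at 6.99, 8.16 and 7.55 FPKM in siFOXD3 and at 5.80, 6.78 and 7.02 FPKM in siNC (0.19, limma adjusted p = 0.0949). With median-of-ratios scaling RBBP8 was called higher (0.26, limma adjusted p = 0.0237).

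Of the 5 genes of the BRCA complexes, 4 rose and PALB2 did not pass the test, beside 27.2% of all tested genes called higher. BRCA1, a ubiquitin ligase that promotes resection and loads PALB2, was at 9.09, 9.65 and 9.29 FPKM in siFOXD3 and at 5.47, 6.24 and 6.29 FPKM in siNC (log2 fold change 0.57 ± 0.08, limma adjusted p = 0.000117). BARD1, its obligate partner, was at 11, 9.87 and 10.9 FPKM in siFOXD3 and at 8.04, 7.09 and 6.92 FPKM in siNC. BARD1 rose by 0.47 on the log2 scale (limma adjusted p = 0.000467). BRCA2, which acts on single-stranded DNA ahead of strand exchange, was at 2.85, 2.86 and 3.08 FPKM in siFOXD3 and at 1.36, 1.86 and 1.90 FPKM in siNC, with no overlap (0.54 ± 0.11, limma adjusted p = 0.00153). PALB2, the bridge between BRCA1 and BRCA2, was at 3.71, 3.54 and 4.19 FPKM in siFOXD3 and at 3.54, 3.58 and 3.77 FPKM in siNC. These PALB2 values overlapped, and its log2 fold change was 0.05 ± 0.09 (limma adjusted p = 0.622). With quantile normalization PALB2 was called higher (0.30, limma adjusted p = 0.0114). BRIP1, a helicase bound to BRCA1 and also known as FANCJ, averaged 2.64 ± 0.231 FPKM in siFOXD3 and 1.77 ± 0.291 FPKM in siNC (SD, n = 3 each), and it rose by 0.39.

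All 6 cofactors of strand exchange rose, and for each of them the groups did not overlap. Of all tested genes, 27.2% were called higher and 29.6% lay higher without overlap. XRCC2, which helps to set up strand exchange, was at 12.1, 10.7 and 10.8 FPKM in siFOXD3 and at 6.24, 6.11 and 5.70 FPKM in siNC. It had the largest change of the 6, 0.79 in log2 units (SE 0.08, limma adjusted p = 9.74e-06). RAD51C and XRCC3 form a complex with each other. RAD51C was at 24.9, 27.6 and 26.7 FPKM in siFOXD3 and at 16.7, 18.1 and 17.1 FPKM in siNC (0.58 ± 0.06, limma adjusted p = 1.95e-05). XRCC3 was at 26.9, 25.9 and 24.2 FPKM in siFOXD3 and at 17.6, 17.1 and 15.4 FPKM in siNC (0.59 ± 0.07, limma adjusted p = 3.29e-05). Levels of the pair were thus alike in each group. RAD51AP1, which stimulates strand pairing, averaged 22.8 ± 0.128 FPKM in siFOXD3 and 16.1 ± 2.39 FPKM in siNC, with a log2 fold change of 0.48. The DNA translocase RAD54L was at 18.7, 19.5 and 20.5 FPKM in siFOXD3 and at 14.6, 13.6 and 12.5 FPKM in siNC, and it rose by 0.50. Its relative RAD54B was at 11.7, 9.94 and 10.2 FPKM in siFOXD3 and at 7.01, 8.41 and 9.31 FPKM in siNC. RAD54B rose by 0.33, and without siFOXD3 replicate 1 its call was lost (limma adjusted p = 0.0657).

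Of the 6 genes that resolve recombination intermediates, 2 rose and 2 fell, 33.3% each, beside 27.2% and 38.7% of all tested genes. BLM, the helicase lost in Bloom syndrome, was at 9.20, 8.41 and 9.87 FPKM in siFOXD3 and at 5.56, 6.14 and 5.58 FPKM in siNC (0.59 ± 0.08, limma adjusted p = 0.000131). RMI1, which joins BLM to its topoisomerase, was at 9.07, 10.5 and 10.1 FPKM in siFOXD3 and at 4.95, 5.29 and 5.31 FPKM in siNC. RMI1 rose by 0.81 ± 0.08 on the log2 scale (limma adjusted p = 1.02e-05). RMI2, the small partner of RMI1, was at 4.51, 4.69 and 5.58 FPKM in siFOXD3 and at 7.44, 5.98 and 7.09 FPKM in siNC, so that all siFOXD3 values were the lower ones. It fell by 0.40 on the log2 scale (limma adjusted p = 0.00596), and with quantile normalization the change was -0.22 and not called (limma adjusted p = 0.103). MUS81, the nuclease that cuts joined molecules, was at 14.6, 14.7 and 12.9 FPKM in siFOXD3 and at 19.9, 21.5 and 18.7 FPKM in siNC, again without overlap. MUS81 had a log2 fold change of -0.48 ± 0.08 (limma adjusted p = 0.000269). EME1, the obligate partner of MUS81, was at 4.39, 4.5 and 4.62 FPKM in siFOXD3, within the siNC values of 4.60, 3.60 and 5.21 FPKM. SLX4 averaged 2.07 FPKM in siFOXD3 and 2.0 FPKM in siNC and was not called, though with quantile normalization it was called higher (0.33, limma adjusted p = 0.0304).

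**Figure D2:**
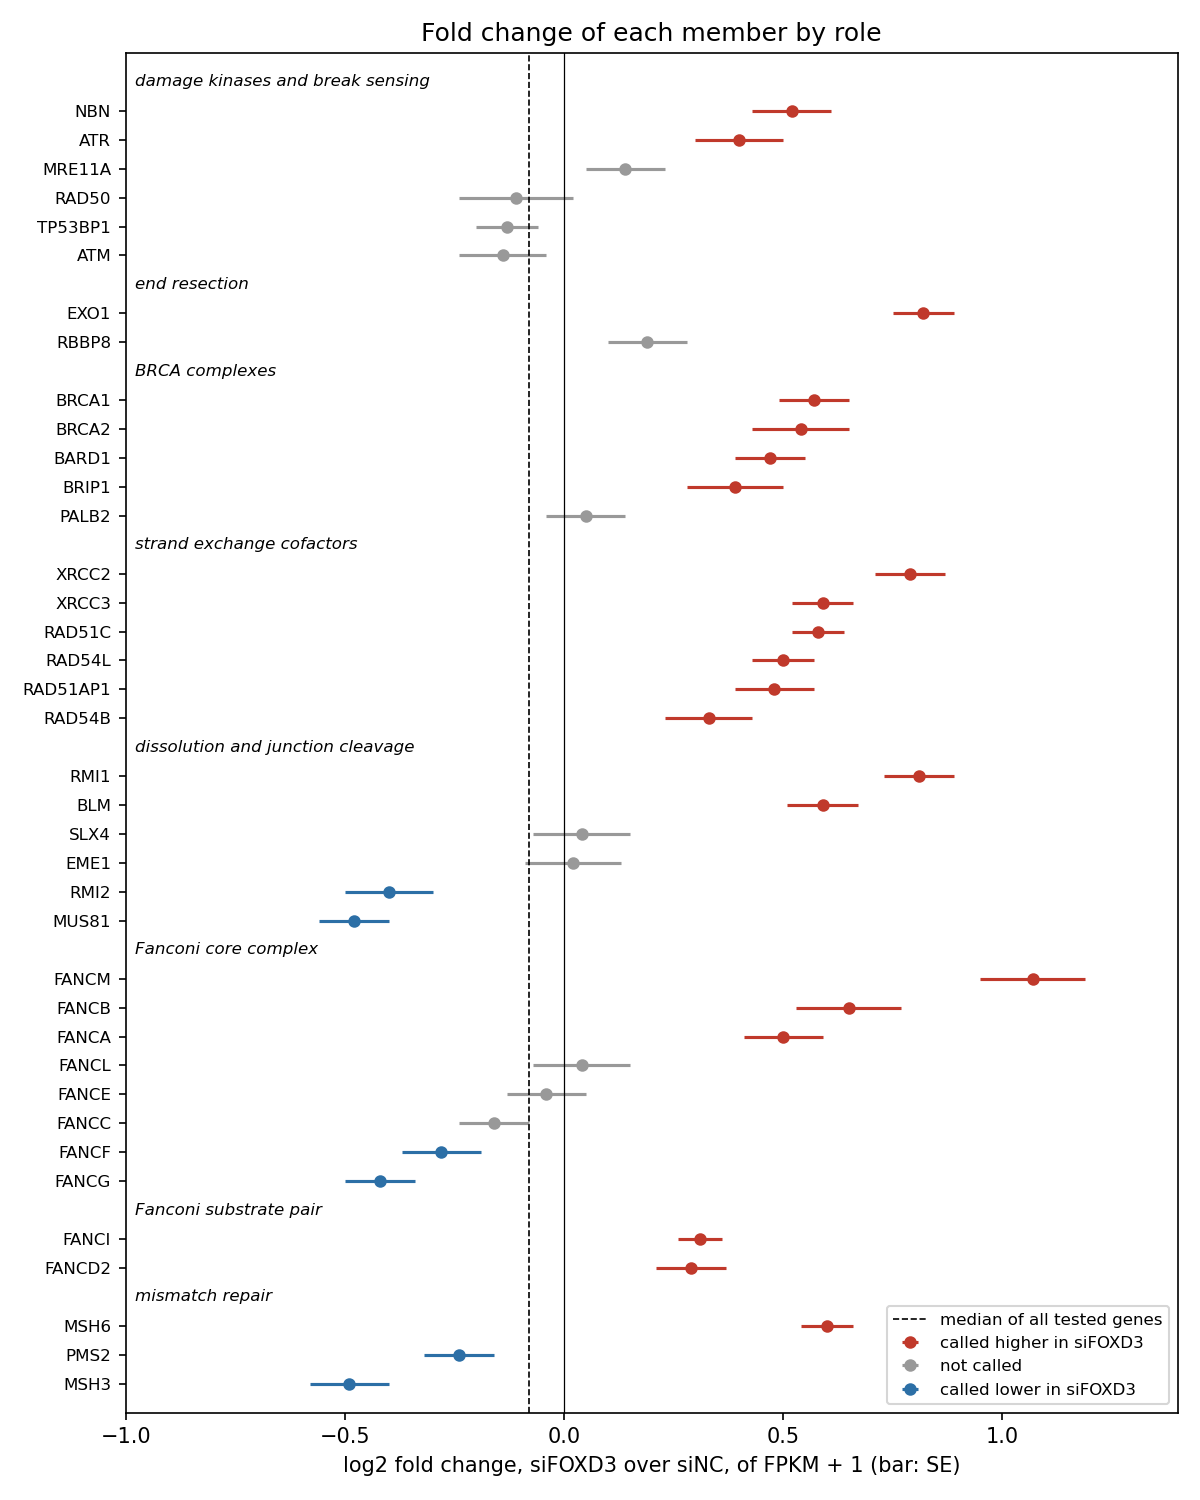
Log2 fold change of FPKM + 1, siFOXD3 over siNC, for each member with its SE (bars), ordered within each role. The dashed line is the median of all tested genes, -0.08, and the points run from MSH3 at -0.49 to FANCM at 1.07.

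Of the 8 genes of the Fanconi core complex, 3 rose, 2 fell and 3 were not called. That is 37.5% higher and 25.0% lower, beside 27.2% and 38.7% of all tested genes. FANCM, a DNA translocase that anchors the core complex at blocked forks, had the largest change of all 38 members on the log2(FPKM + 1) scale. It was at 4.11, 3.99 and 3.77 FPKM in siFOXD3 and at 1.01, 1.61 and 1.51 FPKM in siNC, a ratio of means of 2.88. These levels correspond to an estimated 255, 227 and 241 fragments in siFOXD3 and 54, 89 and 81 fragments in siNC. Its log2 fold change was 1.07, with an SE of 0.12 (limma adjusted p = 2.42e-05), and 0.95 without siNC replicate 1, the lowest library. With a pseudocount of 5 it was 0.49, under the 0.65 of EXO1, and with quantile normalization 1.37. FANCB, a subunit of the catalytic module, was at 4.44, 5.26 and 4.56 FPKM in siFOXD3 and at 2.60, 3.26 and 2.21 FPKM in siNC (0.65 ± 0.12, limma adjusted p = 0.00077). FANCA was at 3.16, 3.47 and 3.12 FPKM in siFOXD3 and at 1.91, 1.99 and 2.08 FPKM in siNC (0.50 ± 0.09, limma adjusted p = 0.000869). FANCG, which binds FANCA directly, went the other way, with 7.80, 8.22 and 7.05 FPKM in siFOXD3 and 11.3, 10.6 and 10 FPKM in siNC. FANCG had a log2 fold change of -0.42 ± 0.08 (limma adjusted p = 0.000938). FANCF, an adaptor of the core complex, was at 5.82, 7.32 and 6.57 FPKM in siFOXD3 and at 7.90, 7.75 and 8.85 FPKM in siNC (-0.28, limma adjusted p = 0.0226). The FANCF call was lost without siFOXD3 replicate 1, without siFOXD3 replicate 3 and without siNC replicate 3 (limma adjusted p = 0.0982, 0.0534 and 0.0854). It was also lost with median-of-ratios scaling (limma adjusted p = 0.0818) and with quantile normalization (limma adjusted p = 0.234). FANCL, the ubiquitin ligase itself, averaged 21.0 ± 1.45 FPKM in siFOXD3 and 20.5 ± 3.33 FPKM in siNC (0.04, limma adjusted p = 0.736). FANCC and FANCE, which bind each other, were not called at -0.16 and -0.04, although all FANCC values in siFOXD3 (6.46 to 6.98 FPKM) were under those in siNC (7.35 to 8.18 FPKM).

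Both substrates of the core complex rose, by like amounts. FANCD2 was at 9.85, 8.59 and 8.86 FPKM in siFOXD3 and at 7.30, 7.05 and 7.46 FPKM in siNC (0.29 ± 0.08, limma adjusted p = 0.00744). FANCI was at 39.8, 40.7 and 40.8 FPKM in siFOXD3 and at 33.0, 31.5 and 32.8 FPKM in siNC (0.31 ± 0.05, limma adjusted p = 0.000299).

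Of the 3 mismatch repair members 1 rose and 2 fell, where 27.2% of all tested genes were called higher and 38.7% lower. MSH6, which recognizes base mismatches, was at 37.2, 36.5 and 39.2 FPKM in siFOXD3 and at 23.4, 24.2 and 25.9 FPKM in siNC (0.60 ± 0.06, limma adjusted p = 1.01e-05). MSH3, which recognizes longer loops, was at 5.72, 5.97 and 5.25 FPKM in siFOXD3 and at 7.25, 8.80 and 8.93 FPKM in siNC. MSH3 had a log2 fold change of -0.49 ± 0.09 (limma adjusted p = 0.00107), close to that of MUS81. It was -0.57 without siNC replicate 1, and with a pseudocount of 5 it was -0.32. PMS2, an endonuclease that acts after mismatch recognition, was at 7.05, 6.85 and 7.30 FPKM in siFOXD3 and at 9.29, 8.18 and 8.16 FPKM in siNC. PMS2 fell by 0.24 on the log2 scale (limma adjusted p = 0.0193). That call was lost without siFOXD3 replicate 1 or 2 (limma adjusted p = 0.0536 and 0.0646), with median-of-ratios scaling (0.0931) and with quantile normalization. Reads of PMS2 can be shared with its many pseudogenes.

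Ratios between partners, taken within each library, do not depend on a scaling factor shared by all genes of a library. Quantile normalization can shift partners unequally, and the ratios were not computed with it. Of 13 pairs compared, 8 had ratios that did not overlap between the groups, beside 70.7% of all tested genes taken singly. No such share was computed over other gene pairs. Each of the 8 had p = 0.1 by a two-sided exact permutation test, the floor for groups of 3, and p = 0.163 after Benjamini-Hochberg adjustment over the 13 pairs, so no pair could pass the threshold. The widest shift was in RMI2 over RMI1, where the log2 ratio was -1.01, -1.15 and -0.86 in siFOXD3 and 0.59, 0.18 and 0.42 in siNC. RMI2 was thus 0.497 times RMI1 in siFOXD3 and 1.31 times RMI1 in siNC. MSH6 over MSH3 had log2 ratios of 2.70, 2.61 and 2.90 in siFOXD3 and 1.69, 1.46 and 1.54 in siNC, that is 6.68-fold in siFOXD3 and 2.95-fold in siNC. FANCG was 2.36 times FANCA in siFOXD3 and 5.33 times FANCA in siNC, a difference in log2 ratio of -1.17. BRCA1 was 0.946 times TP53BP1 in siFOXD3 and 0.548 times TP53BP1 in siNC, with log2 ratios of -0.13, -0.05 and -0.05 in siFOXD3 and -0.88, -0.90 and -0.83 in siNC. PALB2 was 1.30 times BRCA2 in siFOXD3 and 2.15 times BRCA2 in siNC. That difference in log2 ratio was -0.73, and -0.59 without siNC replicate 1. The longest transcripts were 4003 bases for PALB2 and 11986 for BRCA2, and differences by transcript length need not cancel in a ratio. ATM was 0.173 times ATR in siFOXD3 and 0.273 times ATR in siNC. EME1 over MUS81 was higher in all siFOXD3 libraries by 0.54 on the log2 scale, and by 0.34 without siNC replicate 2. NBN over MRE11A was higher in all of them by 0.39.

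The other 5 pairs overlapped between the groups. FANCD2 over FANCI differed by 0.00 on the log2 scale, with ratios of 0.225 in siFOXD3 and 0.224 in siNC (SD of the log2 ratio 0.12 and 0.02, two-sided exact permutation p = 1). XRCC3 over RAD51C differed by 0.01 (exact permutation p = 0.9) and BARD1 over BRCA1 by -0.11 (exact permutation p = 0.6). The differences for RAD54B over RAD54L (-0.16) and for RAD50 over MRE11A (-0.29) were no larger than the spread among the siNC libraries, whose SDs were 0.32 and 0.30.

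**Figure D3:**
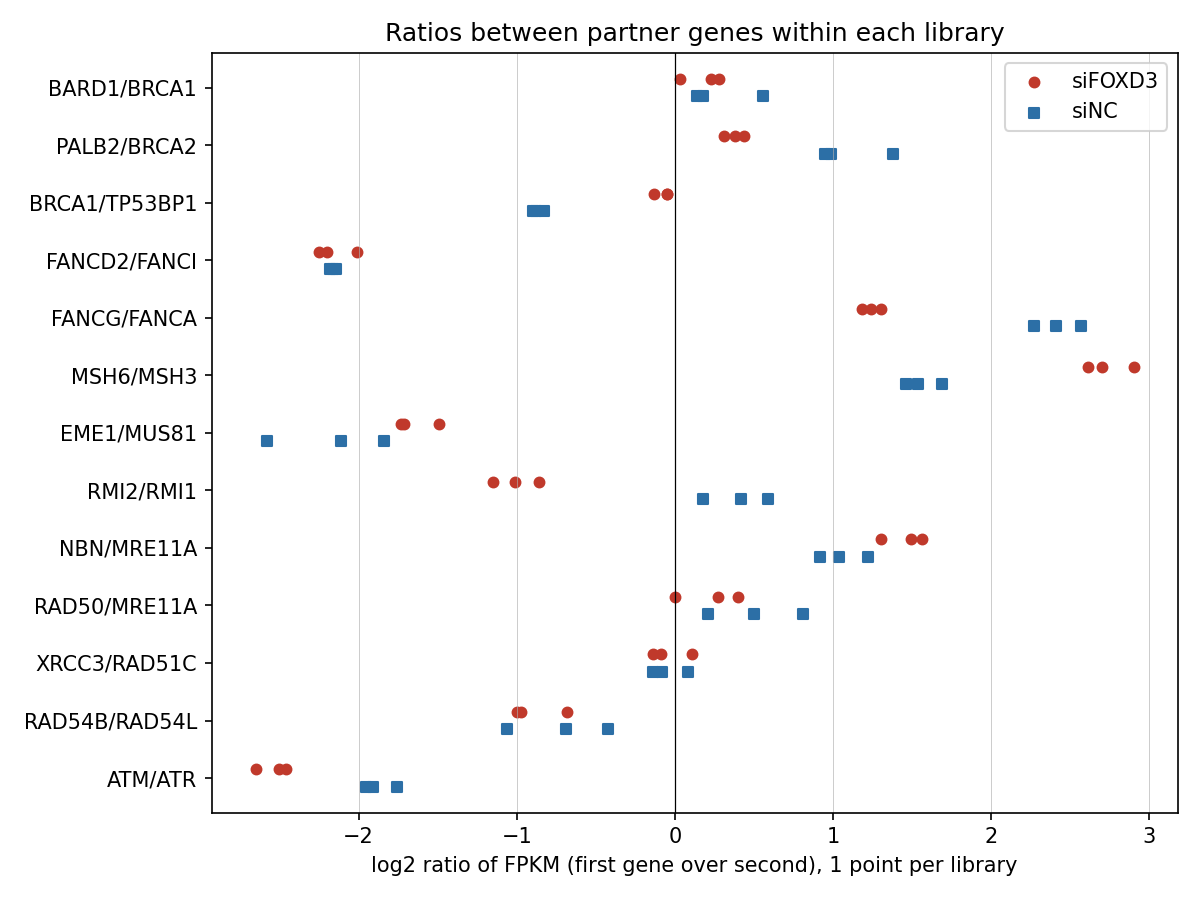
Log2 ratio of FPKM within each library for 13 partner pairs, with the 3 siFOXD3 libraries (circles, upper row) and the 3 siNC libraries (squares, lower row). The group means of RMI2/RMI1, FANCG/FANCA and MSH6/MSH3 differ by more than 1 on the log2 scale, while the values of FANCD2/FANCI and XRCC3/RAD51C overlap.

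Promoter sequence was examined because many members moved together. RefSeq windows on GRCh38.p14, from 250 bases before to 50 bases after an annotated start, were matched for 34 of the 38 members. NBN, RAD54B, FANCI and RMI2 were not matched. The E2F words searched were TTTCCCGC, TTTCGCGC, TTTGCCGC and TTTGGCGC, on both strands. They were in a window of 9 members (26.5%), against 3.99% of all 27305 symbols with a window and 6.66% of the 9842 that belong to tested genes. Of these 9 members, EXO1, XRCC2, RMI1, FANCA, FANCD2 and MSH6 rose, MSH3 and PMS2 fell and FANCC was not called. Of the 25 members with a window and no E2F word, 12 rose. Matches in 8 of the 9 are shown with their flanks on the gene's own strand, from 5′ to 3′, with the word or its reverse complement in capitals.
EXO1, rose, chr1:241848197-241848226, plus strand: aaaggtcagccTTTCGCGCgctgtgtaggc
XRCC2, rose, chr7:152676102-152676131, minus strand: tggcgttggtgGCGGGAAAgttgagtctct
RMI1, rose, chr9:83980762-83980791, plus strand: ggcgcgagcgcGCGGCAAAtcgggcgggaa
FANCA, rose, chr16:89816801-89816830, minus strand: actacaccgcgGCGGCAAAgccaaacgcaa
FANCD2, rose, chr3:10026424-10026453, plus strand: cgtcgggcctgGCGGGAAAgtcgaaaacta
MSH6, rose, chr2:47783137-47783166, plus strand: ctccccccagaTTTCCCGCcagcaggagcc
PMS2, fell, chr7:6009131-6009160, minus strand: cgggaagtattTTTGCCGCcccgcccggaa
FANCC, not called, chr9:95317863-95317892, minus strand: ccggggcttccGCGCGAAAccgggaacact
FANCC, not called, chr9:95317737-95317766, minus strand: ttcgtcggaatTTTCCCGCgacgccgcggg

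Of the other words, those of the cell cycle homology region (TTTGAA and TTCGAA) were in 3 members, ATM, BRIP1 and FANCC (8.82%). They were in 19.5% of all symbols with a window and in 15.3% of those of tested genes. CCAAT was in 17 members (50%), against 39.7% of all and 42.9% of those of tested genes. Of these 17 members, 10 rose, 3 fell and 4 were not called. Of the 17 members with a window and no CCAAT, 8 rose, and 27.2% of all tested genes were called higher. Of forkhead words only TGTTTAC was searched, and no word specific to FOXD3. It was in none of the 34, against 4.19% of all symbols and 3.44% of those of tested genes. With shares so low, its absence from 34 windows cannot be told from the background. A word is a match of letters and not a binding site, and its absence says only that these letters are not in the window. For FANCM, whose ratio of means was 2.88, the 200 bases before the start are shown, with the CCAAT word in capitals.
FANCM, chr14:45135730-45135929, plus strand: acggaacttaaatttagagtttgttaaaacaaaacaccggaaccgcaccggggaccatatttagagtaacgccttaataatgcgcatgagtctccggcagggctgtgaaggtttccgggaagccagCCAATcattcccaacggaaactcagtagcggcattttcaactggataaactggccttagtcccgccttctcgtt

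Genes of the same pathways outside the 38 moved in both directions too, as did all tested genes, with 27.2% higher and 38.7% lower. Of 31 tested genes among 34 other homologous recombination genes, 15 rose and 8 fell, and the median log2 fold change was 0.15. BRCC3, a deubiquitinase of the BRCA1-A complex, was at 15.7, 17.8 and 19.5 FPKM in siFOXD3 and at 6.42, 7.76 and 7.17 FPKM in siNC (1.2), whereas FAM175A, the scaffold of the same complex, was at 1.51, 1.38 and 1.61 FPKM in siFOXD3 and at 2.33, 3.41 and 4.44 FPKM in siNC (-0.79). GEN1, a nuclease that cuts crossed strands, was at 8.87, 7.15 and 7.97 FPKM in siFOXD3 and at 3.10, 4.19 and 4.73 FPKM in siNC (0.86). Of 15 other Fanconi and crosslink repair genes, 8 rose and 4 fell (median 0.25). STRA13, listed among the synonyms of the FANCM partner CENPX, had the largest rise of that list, 115, 100 and 104 FPKM in siFOXD3 and 44.2, 38.6 and 36.1 FPKM in siNC (1.41). APITD1, which RefSeq lists as a synonym of the other FANCM partner CENPS, rose by 0.72, and USP1, which removes ubiquitin from FANCD2, by 0.69. Of 5 tested genes among 6 other mismatch repair genes, 1 rose and 1 fell. The one that fell was MSH5, which acts in meiosis, with a change of -0.88. STRA13 is a synonym of BHLHE40 as well, which has its own row in the tables.

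Checkpoint and break signalling genes moved mostly upward, with 11 of 16 rising, 1 falling and a median of 0.40. CLSPN, which passes the signal of ATR on, was at 6.55, 6.62 and 6.69 FPKM in siFOXD3 and at 2.0, 2.29 and 2.39 FPKM in siNC (1.24). RNA of the break signalling genes H2AFX (1.04) and MDC1 (0.87) was higher too. Other repair routes were more evenly split, beside 27.2% higher and 38.7% lower among all tested genes. Of 10 end joining genes 5 rose and 4 fell (median 0.21), of 17 base excision repair genes 7 rose and 5 fell (median -0.05), and of 17 tested nucleotide excision repair genes 5 rose and 5 fell (median 0.04). Examples are XRCC6 (0.53), the DNA polymerases POLL (-0.97) and POLM (-0.70), the glycosylases NEIL3 (0.99), NEIL1 (-0.76) and UNG (0.73), and the excision factors ERCC5 (-0.89), XPC (-0.50) and RAD23B (0.48), each called in the direction of its sign. These counts describe the lists, and no test compared one list with another.

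**Figure D4:**
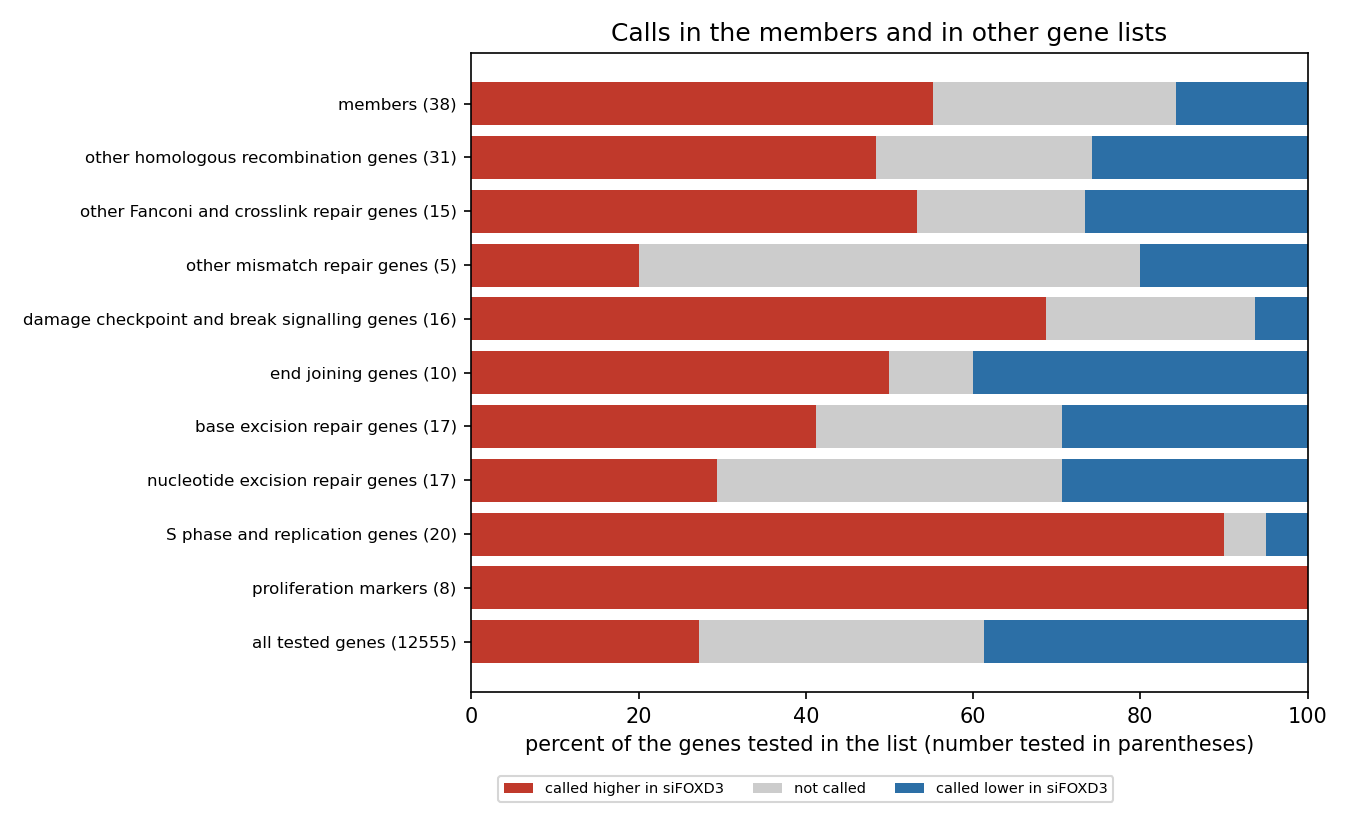
Share of tested genes called higher (left), not called (middle) and called lower (right) in siFOXD3, for the 38 members, for 9 other lists and for all 12555 tested genes. The members had 55.3% higher and 15.8% lower, the S phase and replication genes 90.0% and 5.0%, the nucleotide excision repair genes 29.4% and 29.4%, and all tested genes 27.2% and 38.7%.

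Markers of proliferation rose, as did 21 of the 38 members, while 6 members fell. Among all tested genes 27.2% were called higher and 38.7% lower. Of 20 S phase and replication genes, 18 rose and 1 fell, and the median log2 fold change was 0.87, and all 8 proliferation markers rose, with a median of 0.95 and a range of 0.70 to 1.29. MKI67, present in dividing cells, was at 41.5, 39.8 and 40 FPKM in siFOXD3 and at 17, 17.6 and 17.4 FPKM in siNC. GINS4, a subunit of the replicative helicase, had a change of 1.43, and CDC6, which loads that helicase, of 1.16. CCNE2, a cyclin of S phase entry with a change of 1.43, was at 21.7, 22.1 and 22.4 FPKM in siFOXD3 and at 7.10, 7.64 and 7.95 FPKM in siNC. The 1 replication gene that fell was CDT1, a licensing factor named here after its values were seen (-0.59). The member median of 0.32 was under both list medians, and of the members only FANCM, at 1.07, exceeded 0.87. The part of proliferation in the changes of the members was not tested.

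One control library differed from the others by transcript length. Over tested genes with a longest transcript over 7000 bases, siNC replicate 1 was lower than the other 2 siNC libraries by a median of -0.09 on the log2 scale, and under 2000 bases it was higher by 0.04. The corresponding medians of the siFOXD3 libraries stayed between -0.03 and 0.02 in all length classes. The 9 members over 7000 bases were lower in siNC replicate 1 by a median of -0.17, and this library had the lowest siNC value for 21 of the 38. Without it 21 members rose and 8 fell, RAD50 and TP53BP1 being the additions, beside 3435 higher and 4959 lower of the 12555 genes tested. The member median without it was 0.28, and that of all tested genes was -0.09. Of the 9 long members, the 5 that rose with all libraries had lower fold changes without it, at 0.28 for ATR, 0.51 for BRCA1, 0.45 for BRCA2, 0.95 for FANCM and 0.57 for MSH6, and all 5 kept their calls. The other 4 lay further from 0 without it, at -0.20 for ATM, -0.28 for RAD50, -0.19 for TP53BP1 and 0.11 for SLX4. The part of RNA quality in these values was not tested.

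**Figure D5:**
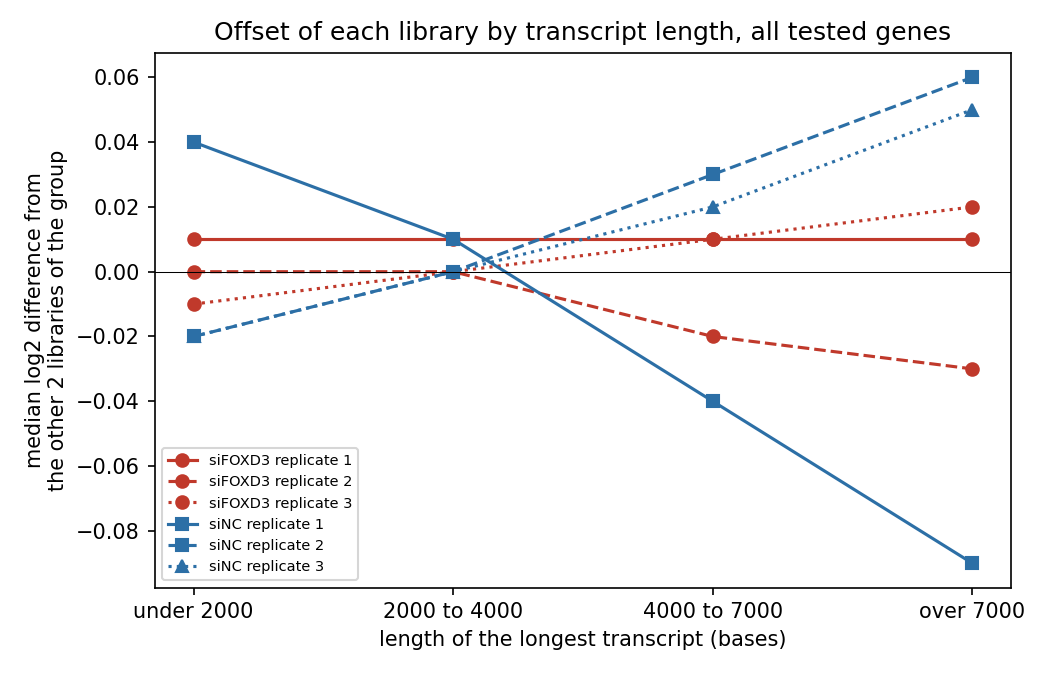
Median log2 difference of each library from the other 2 libraries of its group, over tested genes grouped by the length of the longest transcript in bases. The siNC replicate 1 line falls to -0.09 above 7000 bases, while the siFOXD3 lines stay between -0.03 and 0.02.

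The labels do not say whether counting used strand. In the RefSeq annotation the whole spans of 26 of the 38 members, introns included, overlap another gene. Overlap of exons was not measured, so whether reads of these members are affected is not known. The overlaps include those of RMI1 with HNRNPK, MUS81 with EFEMP2, XRCC3 with KLC1, FANCA with ZNF276 and EME1 with LRRC59. BRCA1, RAD51AP1, FANCD2, RBBP8 and MRE11A have named pseudogenes, as PMS2 does.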

How the data were processed

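The authors deposited 1 table of FPKM per gene for each of the 6 libraries. Per the submitters' processing notes, TopHat and Cufflinks were used on hg19. The sources used here do not give their versions, the annotation or the strand setting. Rows sharing a symbol were summed, which touched no member. Genes at 1 FPKM or more in at least 3 libraries (12555) were tested with limma 3.58.1 (R 4.3.3, trend and robust) on log2(FPKM + 1), siFOXD3 against siNC, with Benjamini-Hochberg adjustment over all of them. Fold changes on this scale understate changes of low genes. The fit was tested on simulated data. Pair ratios were compared by exact permutation (scipy 1.17.1). Depth, assuming fragments of 150 bases, was read from the step sizes of low values and covers counting error only. Fold changes carry replicate error. Transcript lengths came from GENCODE 29 and promoter windows from RefSeq (GRCh38.p14). Members and lists were chosen with earlier results of these data known. Values per library are given for the 12 largest rises, all called falls and genes of the pairs. From each other list up to 3 called genes with the largest change were chosen, and some of them are given by fold change alone. Alternatives covered scaling, pseudocount, filter, model, replicate block, a fold of 1.2 and leaving out each library. Some genes of the lists are counted but not reported by name here.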

Additional observations from a re-analysis of the deposited data

How the results depend on the processing

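Of 532 member values under 14 alternatives, 503 kept direction and call, 11 lost the call, 7 gained it and 11 changed sign, none of them a called member. The count of members called lower was 3 with quantile normalization and 1 against a fold of 1.2, where all tested genes gave 1621 higher and 2676 lower. Leaving out 1 library gave 20 to 21 members higher and 4 to 8 lower, and 3021 to 3435 genes higher and 4395 to 4959 lower over all tested genes. With median-of-ratios scaling 4140 genes were called higher and 4154 lower, and with quantile normalization 4253 and 3836, beside 3415 and 4863 as deposited. With quantile normalization ATM was at 0.13, RAD50 at 0.00 and FANCE at 0.13, and with median-of-ratios scaling FANCE was at 0.03. Without 1 library, RAD50 ranged from -0.28 to 0.02, PALB2 from -0.00 to 0.10, EME1 from -0.10 to 0.12, SLX4 from -0.04 to 0.11, FANCE from -0.09 to 0.03 and FANCL from -0.09 to 0.12. Of 91 pair values, 81 kept their direction and moved by less than the larger of the SDs within groups, 3 moved by more and 7 changed sign. With a pseudocount of 1 the difference in log2 ratio was 0.70 for BRCA1/TP53BP1, -0.93 for FANCG/FANCA, -0.54 for ATM/ATR and -0.02 for FANCD2/FANCI. Without 1 library, BARD1/BRCA1 ranged from -0.19 to 0.02, FANCD2/FANCI from -0.07 to 0.05 XRCC3/RAD51C from -0.07 to 0.07, EME1/MUS81 from 0.34 to 0.70, RAD50/MRE11A from -0.44 to -0.13 and RAD54B/RAD54L from -0.33 to -0.01. A pseudocount of 5 gave 0.24 for BRCA2 and FANCA, 0.17 for BRIP1, 0.39 for BLM, 0.34 for FANCB and -0.25 for RMI2. Quantile normalization gave 0.83 for BRCA2, 0.69 for BRIP1, 0.78 for FANCA, -0.13 for FANCF and -0.11 for PMS2. FANCF and PMS2 were not called there.

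The replicate block gave 21 members higher and 6 lower, beside 3354 and 4818 of all tested genes, and changed no call among the members. Deviations from the group means had correlations of 0.0613, 0.163 and 0.115 between same-numbered libraries. Between siFOXD3 and siNC libraries of different number they were -0.119 to 0.0259. The labels give a shared number and state no pairing, and whether same-numbered libraries were handled together is not known. The cause of these changes was not tested. Only 3 libraries a group limit what small changes can be detected.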
